A study of Mus musculus with 31 samples.

Results

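Mitosis and cytokinesis genes encode the proteins that take a cell from the end of DNA replication to its division into daughter cells. The set described here holds 40 genes chosen by symbol, with no measured value in the rule, although earlier results of these data were known at the time. All 40 were found among the 24421 genes of the count table, and all 40 were among the 14036 genes with enough counts to be tested. RNA was sequenced from fibroblasts of the heart, cells that lay down its matrix. They came from C57Bl/6 mice aged 8 to 12 weeks and were kept flat (2D) or in a spatial (3D) arrangement. The 29 libraries fell into 10 groups. A group name such as 3D-2D-3D was read as the arrangements in turn, and the others of that kind are 3D-2D-2D, 3D-2D, 3D alone and 2D alone. Groups 3D-5days and 2D-5days also carry a time of 5 days, while the values of 2D-0.5kPa, of 2D-8kPa and of 2D-64kPa, in kilopascals, were read as the stiffness of the surface. Every group had 3 libraries except 3D-2D, which had 2. No label gives a transgene, a drug or a change of genotype in any group. The sources used here state neither how long each arrangement lasted, nor what the 3D cultures were made of, nor how many mice stand behind a library, so p-values measure the spread between libraries, which may be technical. The 2 chromatin (ATAC-seq) libraries were not analysed here.

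Cell division depends on a kinase that is switched on and then off. Cdk1 bound to cyclin B starts mitosis, spindle microtubules attach to kinetochores built on centromeres, and a checkpoint holds the cell until every kinetochore is attached. The anaphase-promoting complex with its activator Cdc20 then marks cyclin B and securin for destruction, separase cuts cohesin, and a ring of actomyosin divides the cell. Most of these genes are transcribed late in the cell cycle, when they are released from the DREAM repressor complex and taken up by B-Myb and Foxm1. Fibroblasts of the healthy adult heart rarely divide, and they enter the cycle after injury or on being placed in culture.

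The members fall into 8 roles. The division markers are Mki67 and Top2a. Entry into mitosis is represented by Ccna2, Ccnb1, Ccnb2, Cdk1, Cdc25c, Plk1, Aurka, Foxm1, Melk and Nek2. Cenpa, Cenpe, Cenpf, Ndc80 and Nuf2 belong to the centromere and kinetochore, and Bub1, Bub1b and Ttk to the spindle checkpoint. Aurkb, Birc5, Incenp and Cdca8 form the chromosomal passenger complex. Kif11, Kif2c, Kif4, Tpx2, Nusap1 and Hmmr are spindle motors and microtubule proteins. Cdc20, Ube2c and Espl1 act in anaphase, and Anln, Ect2, Kif20a, Kif20b, Kif23, Prc1 and Racgap1 in cytokinesis. They lie on 16 chromosomes. By RefSeq coordinates on GRCm38.p6, the assembly also known as mm10, the spans of 17 of them overlap another gene, among them Top2a, Foxm1, Incenp, Tpx2, Cdc20 and Anln. Whether the counting used strand is not stated, so reads from such overlaps are uncertain.

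Promoters of the set share sequence features that the choice of genes did not use. RefSeq promoter windows on GRCm38.p6, 300 bases from 250 before to 50 after an annotated start, were used for 33 of the 40 genes, and the windows of 2 of these genes were the first of several. In 16 of the 33 windows the start is the outer end of the RefSeq gene, and in the others it lies elsewhere in the gene. The CHR, a cell-cycle element that the DREAM complex is known to bind, was searched as TTTGAA on both strands. It occurred in 25 of the 33 windows (75.8%), in 18.1% of the 27025 promoter windows of all genes and in 11.6% of the 10597 windows of tested genes. Within 50 bases of the start it occurred in 69.7% of the members' windows, 4.92% of all windows and 2.88% of those of tested genes. The CCAAT box, known as the site of NF-Y, was searched as CCAAT on both strands and occurred in 75.8% of the members' windows, 37.9% of all windows and 38.2% of those of tested genes. Windows with both motifs made up 63.6% of the members, 7.12% of all windows and 4.77% of those of tested genes. The motifs shared a base in 1 of the 33 windows. A further 4 genes had the CHR alone, 4 the CCAAT box alone and 4 (Melk, Nuf2, Birc5 and Nusap1) neither in the window searched. These matches describe letters in a window, and no binding was measured.

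The 5 stretches that follow are shown because their genes carry results below and have both motifs close to the start. Each runs 5′ to 3′ from 100 bases before to 20 bases after the start, on GRCm38.p6, in lower case with every match to either motif in capitals (TTTGAA and TTCAAA for the CHR, CCAAT and ATTGG for the CCAAT box).
Cdk1, chr10:69352893-69353012 on the minus strand: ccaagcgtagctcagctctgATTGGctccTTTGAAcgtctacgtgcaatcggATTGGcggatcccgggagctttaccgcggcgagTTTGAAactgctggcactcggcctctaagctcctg
Cdc20, chr4:118437324-118437443 on the minus strand: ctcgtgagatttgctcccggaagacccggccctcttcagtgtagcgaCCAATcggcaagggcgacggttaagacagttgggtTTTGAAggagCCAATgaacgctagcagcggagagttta
Cenpf, chr1:189688067-189688186 on the minus strand: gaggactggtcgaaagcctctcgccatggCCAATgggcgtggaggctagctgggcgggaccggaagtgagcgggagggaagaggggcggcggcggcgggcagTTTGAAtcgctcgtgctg
Racgap1, chr15:99651637-99651756 on the minus strand: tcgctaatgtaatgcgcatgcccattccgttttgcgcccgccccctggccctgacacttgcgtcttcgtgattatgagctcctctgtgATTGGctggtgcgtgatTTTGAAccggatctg
Espl1, chr15:102296193-102296312 on the plus strand: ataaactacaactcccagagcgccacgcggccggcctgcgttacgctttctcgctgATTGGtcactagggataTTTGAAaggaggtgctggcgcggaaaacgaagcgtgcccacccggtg
In the Cdk1 window the CHR matches begin 71 and 15 bases before the start, and in that of Cdc20 the match begins 18 bases before it. The match of Cenpf begins 2 bases and that of Racgap1 5 bases after the start. Espl1, which differed least between 3D and 2D of the 40 genes, has the same kind of arrangement, with a CHR match 27 and a CCAAT match 44 bases before the start.

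**Figure D1:**
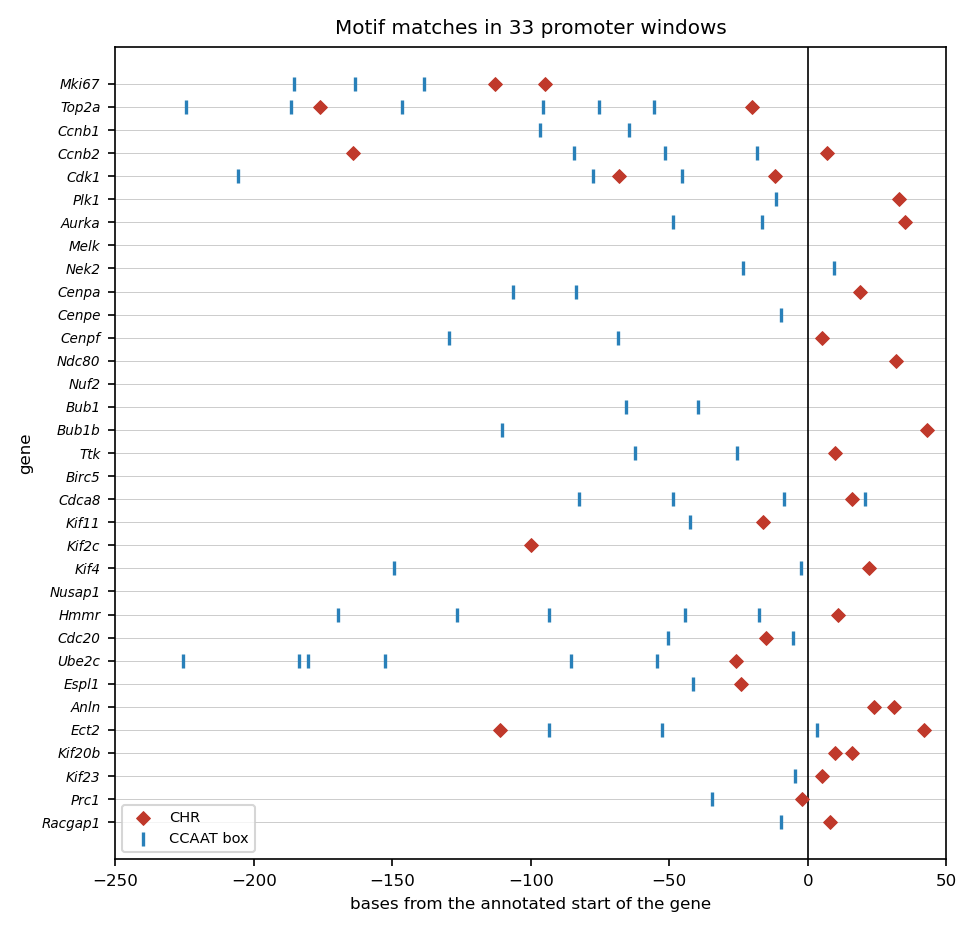
Matches to the CHR (diamonds) and the CCAAT box (bars) in the promoter windows of 33 genes, plotted as bases from the annotated start, which is the vertical line. The CHR matches gather near the start, where 69.7% of the windows hold one within 50 bases.

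Gene counts per library ranged from 8509987 to 29909400. Levels below are CPM, counts scaled to the effective library total. They are not divided by gene length and are compared within a gene only. Statements below that libraries of the groups do not overlap cover the named genes only, and the share over all tested genes was not counted. A gene was called at a Benjamini-Hochberg adjusted p under 0.05 over all 14036 genes in edgeR's quasi-likelihood test, and fold changes are on the log2 scale with a standard error. Summed over 10 fibroblast markers, libraries held between 12140 and 72940 CPM, with no marker at 0 in any group, while 8 lymphocyte markers summed to at most 1.23 CPM. The sum of 15 macrophage markers, none at 0 in any group, lay between 218.5 and 11780 CPM. Some libraries stood apart in the set. The third 3D library was the lowest of its group for 39 of 40 members (41.4% of tested genes). The third library of each kPa group was the highest of its group for 40 of 40 members (42.1% to 44.1% of tested genes), and 3D-2D replicate 1 lay above replicate 2 for 40 of 40 (47% of tested genes). In a mixture of cells, fewer dividing cells and less of these RNAs in each dividing cell cannot be told apart.

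The level of the set spanned a wide range over the groups. Summed over the 40 genes, it was 106 ± 11 CPM in 3D-2D-3D, 447 ± 4.84 in 3D-2D-2D, 95.6 ± 16.7 in 3D-5days, 417 ± 21.1 in 2D-5days, 237 ± 115 in 3D and 3424 ± 418 in 2D (mean ± SD, n = 3 each). The 2 libraries of 3D-2D had 1678 and 1032 CPM. The kPa groups had 2742 ± 1227 CPM at 0.5 kPa, 2657 ± 889.6 at 8 kPa and 2536 ± 1061 at 64 kPa (n = 3 each). By mean log2 CPM, 2D was the highest group for 38 of 40 members. The exceptions were Ccnb2, highest at 8 kPa, and Bub1b, highest at 0.5 kPa. The lowest group was 3D-5days for 27 members and 3D-2D-3D for 13. Group means ran from high to low as 2D, then 3D-2D, then 3D, then 3D-2D-3D for 40 of 40 members, and for 6.58% of tested genes. They ran as 3D-2D, then 3D-2D-2D, then 3D-2D-3D for 40 of 40 members, and for 20.3% of tested genes.

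**Figure D2:**
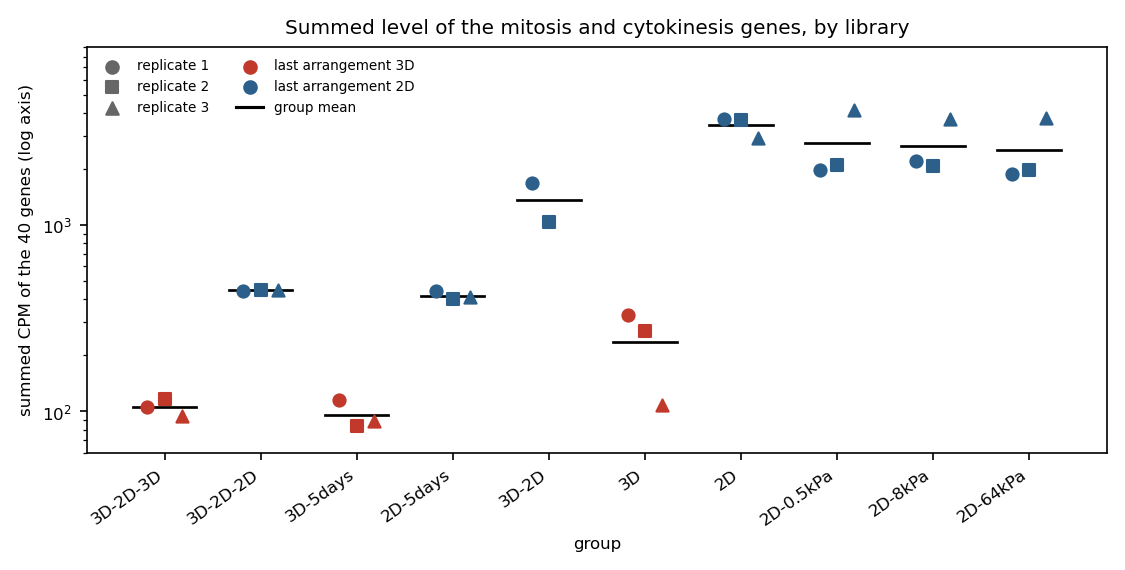
Summed CPM of the 40 genes in each of the 29 libraries, on a log axis, with the replicate number as the marker, the last arrangement as the colour and a bar at the group mean. The 3D-2D-3D, 3D-5days and 3D groups have the lowest means, and the third 3D library (109 CPM) lies near the 3D-2D-3D libraries (95.0 to 117 CPM).

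Mki67 encodes Ki-67, the protein that coats mitotic chromosomes and is used to count cycling cells. It had 4.06, 5.86 and 2.42 CPM in the 3D-2D-3D libraries, 33.9, 31.8 and 31.9 in 3D-2D-2D, 8.79, 1.0 and 2.59 in 3D-5days and 46.3, 28.5 and 33 in 2D-5days. It had 173 and 95.7 CPM in 3D-2D, 42.0, 29.6 and 2.01 in 3D and 423, 387 and 344 in 2D. At 0.5, 8 and 64 kPa it had 211, 184 and 584, then 229, 216 and 495, then 199, 216 and 487 CPM. The 3D-2D-3D libraries overlap those of 3D through the third 3D library, and in each kPa group the third library is the high one. Top2a, the topoisomerase that untangles sister DNA before they part, had 6.34, 5.86 and 3.87 CPM in 3D-2D-3D, 32.1, 32.6 and 33.8 in 3D-2D-2D, 4.11, 1.75 and 2.59 in 3D-5days and 36.5, 24.9 and 27.4 in 2D-5days. In 3D-2D it had 143 and 93.4 CPM, in 3D 28.5, 20.2 and 3.82 and in 2D 280.2, 272 and 252. As for Mki67, 3D replicate 3 is the lowest of its group.

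**Figure D3:**
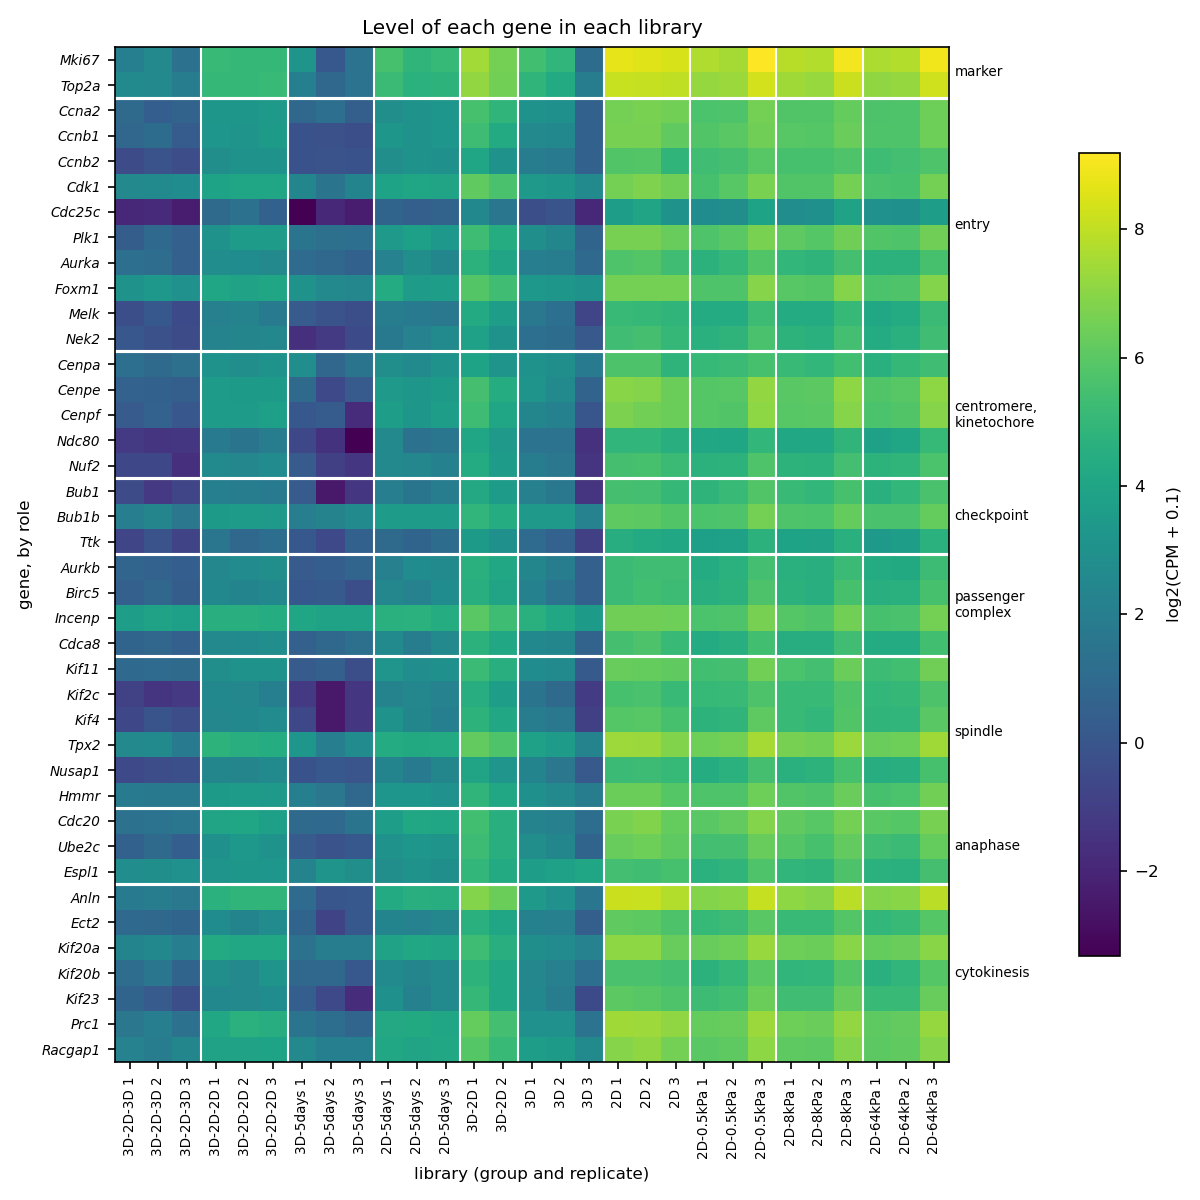
Level of each of the 40 genes (rows, by role) in each of the 29 libraries (columns, by group and replicate), as log2(CPM + 0.1). The colours follow the groups rather than the roles, and the third 3D library and the third library of each kPa group stand apart within their groups.

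Between 3D and 2D the whole set was lower in 3D. All 40 members were called lower, against 27.3% of tested genes, with a median log2 fold change of -4.03 over the members and 0.035 over all genes. Summed over the set, the level was 14.5-fold lower in 3D. The 3D libraries lay below the 2D libraries in each of the members named in this section. Macrophage markers summed to 8361, 5878 and 218.5 CPM in the 3D libraries and to 1185 to 1479 CPM in 2D. Summed endothelial markers were 77.6 to 111 CPM in 3D, against 42.3 to 66.5 in 2D, and cardiomyocyte markers 66.8 to 207 CPM, against 10.2 to 25.3. For epicardial and mesothelial markers the sums were 3.76 to 12.2 CPM in 3D, against 26 to 27.9 in 2D, and Schwann markers 15.2 to 29.3 CPM, against 7.06 to 10.1; the part of these cells in the result was not tested. The third 3D library had the fewest macrophage markers and, in 39 of 40 members, the lowest level. Within each replicate number the members were lower in 3D in 40 of 40 genes, by a mean of -3.48, -3.76 and -4.99 on the log2 scale. The shares of tested genes lower in 3D were 49%, 49.1% and 50.7%.

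Among entry genes the median log2 fold change was -4.07 and all 10 were called. Foxm1, the transcription factor of late cell-cycle genes, had 10.3, 9.89 and 8.43 CPM in 3D libraries, against 96.2, 93.8 and 95.2 in 2D libraries. Its log2 fold change was -3.32 ± 0.36, adjusted p = 1.26e-07 in edgeR. Cdk1 (chr10:69335146-69352912), the kinase that starts mitosis, had 10.8, 9.89 and 6.07 CPM in 3D and 95.3, 109 and 89.9 CPM in 2D, a log2 fold change of -3.46 ± 0.32, adjusted p = 1.4e-08. For both genes the third 3D library was the lowest, but less so than for Mki67. All 5 centromere and kinetochore genes were lower, with a median of -4.20. Cenpe, a kinetochore motor, had 8.94, 6.26 and 1.46 CPM in 3D, against 123, 118 and 84.0 in 2D (-4.30 ± 0.53, adjusted p = 7.02e-07). Cenpf, a large kinetochore protein, had 5.28, 4.39 and 0.902 CPM in 3D, against 107, 92.8 and 83.0 in 2D (-4.77 ± 0.54, adjusted p = 2.38e-07). The 3 checkpoint genes had a median of -4.00. Bub1, a checkpoint kinase, had 4.27, 3.15 and 0.278 CPM in 3D and 45.3, 43.1 and 32.6 in 2D (-4.01 ± 0.54, adjusted p = 2.37e-06). Bub1b, which encodes the checkpoint protein BubR1, had 10.9, 10.9 and 4.51 CPM in 3D and 67.5, 65.1 and 54.5 in 2D, a log2 fold change of -2.84 ± 0.29, adjusted p = 6.57e-08.

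The chromosomal passenger complex had a median of -3.50 over its 4 genes, all called. Incenp, its scaffold, had 24.2, 18.1 and 11.1 CPM in 3D, against 88.7, 89.0 and 86.5 in 2D (-2.31 ± 0.29, adjusted p = 1.21e-06). Cdca8, which encodes borealin, had 5.59, 5.21 and 1.49 CPM in 3D, against 45.6, 52.2 and 35.7 in 2D (-3.46 ± 0.41, adjusted p = 3.63e-07). The 6 spindle genes had a median of -3.93. Tpx2, the activator of Aurora A on the spindle, had 14.4, 12.1 and 4.75 CPM in 3D and 166, 158 and 112 in 2D (-3.81 ± 0.41, adjusted p = 1.09e-07). Hmmr, a spindle microtubule protein and hyaluronan receptor, had 7.62, 5.83 and 3.71 CPM in 3D and 83.7, 83.3 and 59.6 in 2D (-3.73 ± 0.32, adjusted p = 3.77e-09). The 3D range of each of these genes was wider, as a ratio, than its 2D range. Cdc20, the activator of the anaphase-promoting complex, had 4.77, 4.25 and 2.22 CPM in 3D, against 103, 114 and 75.9 in 2D (-4.71 ± 0.32, adjusted p = 1.6e-10). Espl1 (chr15:102296254-102324357), which encodes separase, had the smallest difference of the 40. It had 12.5, 14.1 and 17.1 CPM in 3D, against 44.3, 40.9 and 45.9 in 2D (-1.58 ± 0.28, adjusted p = 5.76e-05), and it is the only member for which 3D replicate 3 was not the lowest of the group. With replicate 3 alone in both groups, its variance borrowed from the rest, it was not called (edgeR, adjusted p = 0.0532). The largest difference was that of the cytokinesis gene Anln (chr9:22331214-22389211), which encodes anillin, a scaffold of the contractile ring. It had 10.3, 7.98 and 2.95 CPM in 3D, against 291, 282 and 216 in 2D (-5.23 ± 0.44, adjusted p = 3.86e-09). Racgap1, the GTPase-activating subunit of centralspindlin, had 12.9, 11.2 and 5.93 CPM in 3D and 120.3, 136 and 94.5 in 2D, a log2 fold change of -3.55 ± 0.34, adjusted p = 2.39e-08.

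**Figure D4:**
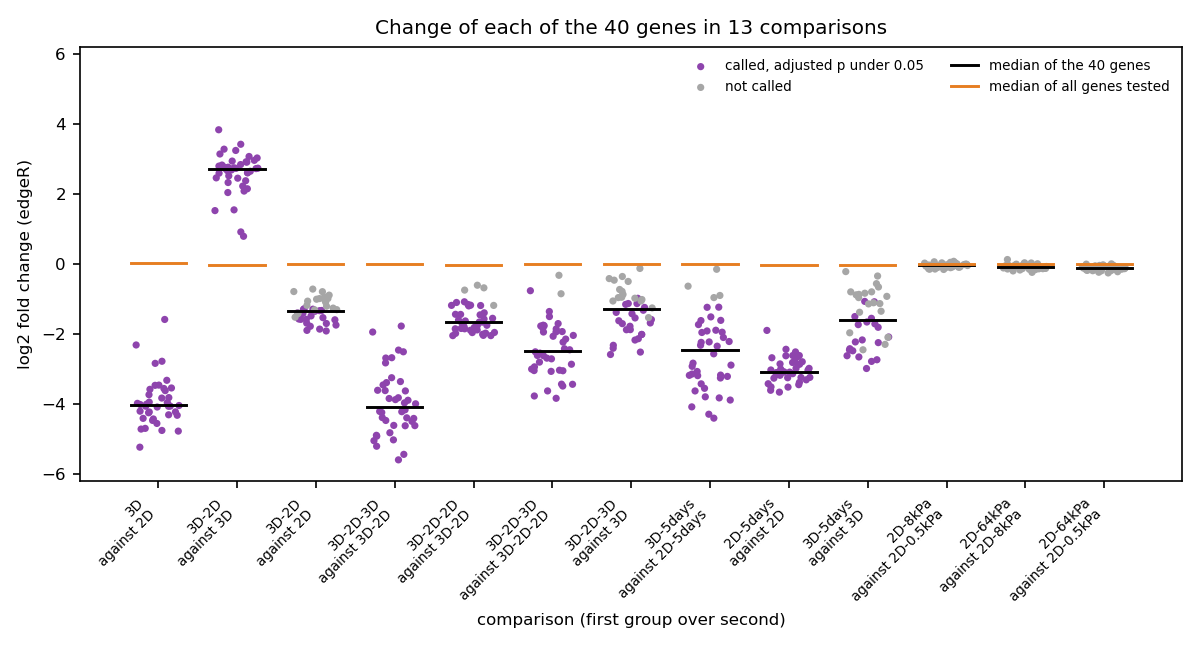
Log2 fold change of each of the 40 genes in 13 comparisons, the first-named group over the second, coloured by whether edgeR called the gene at an adjusted p under 0.05, with the median of the 40 genes (black) and of all 14036 genes (orange). The members lie on 1 side of 0 in the 10 comparisons of arrangements and times, and between -0.25 and 0.13, most of them below 0, in the 3 of stiffness.

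Cells taken from 3D to 2D had higher levels of the set than 3D cells. In 3D-2D against 3D, 40 members were called higher, against 28.8% of tested genes, with a median log2 fold change of 2.73 over the members and -0.024 over all genes. The summed level was 5.72-fold higher. In a fit of these groups only, edgeR did not call Mki67 (2.44, adjusted p = 0.137) or Bub1 (2.56, adjusted p = 0.0925). Anln changed most, with 118 and 82.0 CPM in 3D-2D and the 3D values above (3.84 ± 0.43, adjusted p = 2.23e-07, edgeR). Espl1 changed least, with 30.7 and 19.9 CPM in 3D-2D (0.79 ± 0.30, adjusted p = 0.0293), and it was not called when libraries were scaled by their totals alone (edgeR, adjusted p = 0.0793) or without 3D replicate 1, 3D replicate 2 or 3D-2D replicate 1. Cdk1 had 70.9 and 48.7 CPM in 3D-2D (2.75 ± 0.33, adjusted p = 5.42e-07) and Cdc20 42.3 and 23.2 (3.14 ± 0.32, adjusted p = 4.73e-08). Foxm1 had 58.0 and 41.1 CPM in 3D-2D (2.38 ± 0.37, adjusted p = 1.43e-05). In all 3 genes both 3D-2D libraries lay above every 3D library, and replicate 1 above replicate 2. Macrophage markers summed to 820.6 and 614.6 CPM in 3D-2D, below the first and second and above the third 3D library. Summed fibroblast markers were 14970 to 15700 CPM in 3D-2D, against 20790 to 35260 in 3D, and endothelial markers 24.8 to 34.8 CPM, against 77.6 to 111. For cardiomyocyte markers the sums were 18.9 to 19.7 CPM in 3D-2D, against 66.8 to 207 in 3D, and epicardial and mesothelial markers 44.5 to 50.1 CPM, against 3.76 to 12.2. For Schwann markers the sums were 4.80 to 4.82 CPM in 3D-2D, against 15.2 to 29.3 in 3D; the part of these cells in the result was not tested.

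Against 2D, the 3D-2D cells had lower levels, and the call depends on the libraries used. The edgeR fit called 21 members lower, against 7.54% of tested genes, with a median of -1.33 over the members and 0.009 over all genes. In sum the members were 2.53-fold lower in 3D-2D. Ccnb2, a B-type cyclin, had the largest difference (-1.91 ± 0.32, adjusted p = 0.000763) and Cdk1 the smallest (-0.71 ± 0.33, adjusted p = 0.148). Hmmr had 29.2 and 17.6 CPM in 3D-2D, against the 2D values above (-1.69 ± 0.33, adjusted p = 0.00236). Neither division marker was called, with adjusted p = 0.201 for Mki67 and 0.137 for Top2a, and none of the 4 passenger complex genes was. Summed macrophage markers were 615 to 821 CPM in 3D-2D, against 1185 to 1479 in 2D, and endothelial markers 24.8 to 34.8 CPM, against 42.3 to 66.5. For epicardial and mesothelial markers the sums were 44.5 to 50.1 CPM in 3D-2D, against 26 to 27.9 in 2D, and Schwann markers 4.80 to 4.82 CPM, against 7.06 to 10.1; the part of these cells in the result was not tested. Without 2D replicate 1 or 2 the count was 10 each, beside 487 and 649 genes of all tested lower. It was 33 with replicates 1 and 2 alone (1826 genes) and 9 in a fit of these groups only (331 genes). With the most alike libraries of each group summed it was 0 (64 genes). The members' median lay between -1.26 and -1.46 in these settings. That median was -1.72 without 3D-2D replicate 1, -1.04 without 3D-2D replicate 2 and -1.11 with replicate 3 alone in 2D.

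Cells named as returned to 3D had lower levels of the set than 3D-2D cells. In 3D-2D-3D against 3D-2D, 40 members were called lower, against 25.0% of tested genes, with a median of -4.08 over the members and 0.0099 over all genes. The summed level was 12.8-fold lower. Kif2c (chr4:117159633-117182624), a kinesin that takes microtubules apart at centromeres, had the largest difference (-5.59 ± 0.50, adjusted p = 1.47e-08, edgeR) with 13, 6 and 10 counts in 3D-2D-3D, against 526 and 250 in 3D-2D. Espl1 had the smallest, with 6.92, 7.40 and 7.90 CPM in 3D-2D-3D (-1.77 ± 0.30, adjusted p = 4.97e-05). Anln had 3.34, 3.68 and 3.10 CPM in 3D-2D-3D (-4.89 ± 0.45, adjusted p = 2.48e-08), Cenpf 1.09, 1.41 and 0.968 CPM (-4.62 ± 0.58, adjusted p = 1.38e-06) and Tpx2 5.87, 5.95 and 3.58 CPM (-3.62 ± 0.43, adjusted p = 5.82e-07). These groups do not overlap in any of the 5 genes, and the share of all tested genes without overlap was not counted. Summed fibroblast markers were 15980 to 23430 CPM in 3D-2D-3D, against 14970 to 15700 in 3D-2D, and macrophage markers 226 to 249 CPM, against 615 to 821. For endothelial markers the sums were 152 to 213 CPM in 3D-2D-3D, against 24.8 to 34.8 in 3D-2D, and cardiomyocyte markers 33.2 to 166 CPM, against 18.9 to 19.7. For pericyte and smooth muscle markers the sums were 231 to 307 CPM in 3D-2D-3D, against 102 to 138 in 3D-2D, and epicardial and mesothelial markers 6.97 to 20.6 CPM, against 44.5 to 50.1. For Schwann markers the sums were 9.22 to 13 CPM in 3D-2D-3D, against 4.80 to 4.82 in 3D-2D; the part of these cells in the result was not tested.

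Cells named as kept in 2D also had lower levels than 3D-2D cells. In 3D-2D-2D against 3D-2D, 36 members were called lower, against 23.6% of tested genes, with a median of -1.66 over the members and -0.018 over all genes. Summed, the level was 3.03-fold lower. The 4 not called were Ccnb2 (-0.68 ± 0.32, adjusted p = 0.0818), Cenpa (-0.60 ± 0.39, adjusted p = 0.22), Cenpf (-1.18 ± 0.51, adjusted p = 0.065) and Kif20a (-0.74 ± 0.31, adjusted p = 0.0507). Kif23, a kinesin and the partner of Racgap1 in centralspindlin, had the largest difference (-2.04 ± 0.56, adjusted p = 0.00459). Cdk1 had 15.2, 16.8 and 16.4 CPM in 3D-2D-2D and the 3D-2D values above (-1.89 ± 0.33, adjusted p = 7.84e-05). Anln had 25.4, 28.7 and 29.3 CPM in 3D-2D-2D (-1.85 ± 0.41, adjusted p = 0.000811). The 3D-2D-2D libraries lay close together, with summed levels of 441 to 450.2 CPM. Summed fibroblast markers were 66900 to 72940 CPM in 3D-2D-2D, against 14970 to 15700 in 3D-2D, and macrophage markers 466 to 472 CPM, against 615 to 821. For endothelial markers the sums were 82.5 to 89.3 CPM in 3D-2D-2D, against 24.8 to 34.8 in 3D-2D, and cardiomyocyte markers 31.7 to 35.3 CPM, against 18.9 to 19.7. For pericyte and smooth muscle markers the sums were 410.1 to 435 CPM in 3D-2D-2D, against 102 to 138 in 3D-2D, and epicardial and mesothelial markers 77.8 to 84.4 CPM, against 44.5 to 50.1. For Schwann markers the sums were 8.85 to 12.6 CPM in 3D-2D-2D, against 4.80 to 4.82 in 3D-2D; the part of these cells in the result was not tested. Without 3D-2D replicate 1 the members' median was -1.27.

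Set against each other, 3D-2D-3D had lower levels than 3D-2D-2D. Here 38 members were called lower, against 20.6% of tested genes, with a median of -2.48 over the members and -0.0089 over all genes. The sum of the members was 4.21-fold lower. The exceptions were Foxm1, with 8.15, 10.3 and 7.81 CPM in 3D-2D-3D and 16, 14.6 and 16.5 in 3D-2D-2D (-0.85 ± 0.35, adjusted p = 0.0556), and Espl1, with the 3D-2D-3D values above and 8.84, 9.68 and 9.28 CPM in 3D-2D-2D (-0.32 ± 0.29, adjusted p = 0.402). Foxm1 was called by DESeq2 (adjusted p = 0.036). Kif2c again differed most (-3.83 ± 0.50, adjusted p = 2.78e-06). Cenpf had 12.0, 12.0 and 13.3 CPM in 3D-2D-2D (-3.43 ± 0.56, adjusted p = 4.43e-05), Hmmr 3.38, 3.27 and 3.26 CPM in 3D-2D-3D, against 11, 11.6 and 10.6 in 3D-2D-2D (-1.75 ± 0.31, adjusted p = 0.000122), and Cdc20 2.56, 2.63 and 2.87 CPM in 3D-2D-3D, against 15.7, 17.0 and 13.4 in 3D-2D-2D (-2.51 ± 0.31, adjusted p = 1.18e-06). Incenp was called narrowly, with 12.3, 14.5 and 13.1 CPM in 3D-2D-3D, against 23.8, 22.8 and 21.1 in 3D-2D-2D (-0.76 ± 0.29, adjusted p = 0.0417), and it lost the call whichever library of these groups was left out. Summed fibroblast markers were 15980 to 23430 CPM in 3D-2D-3D, against 66900 to 72940 in 3D-2D-2D, and macrophage markers 226 to 249 CPM, against 466 to 472. For endothelial markers the sums were 152 to 213 CPM in 3D-2D-3D, against 82.5 to 89.3 in 3D-2D-2D, and pericyte and smooth muscle markers 231 to 307 CPM, against 410.1 to 435. For epicardial and mesothelial markers the sums were 6.97 to 20.6 CPM in 3D-2D-3D, against 77.8 to 84.4 in 3D-2D-2D; the part of these cells in the result was not tested.

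In 3D-2D-3D against 3D, 24 members were called lower, against 11.8% of tested genes, with a median of -1.29 over the members and 0.016 over all genes. The summed level was 2.23-fold lower. Mki67 had the largest difference (-2.58 ± 0.74, adjusted p = 0.0151), but 0.25 with replicate 3 alone, and Foxm1 the smallest (-0.13 ± 0.34, adjusted p = 0.843). Cenpe had 1.43, 1.36 and 1.26 CPM in 3D-2D-3D, against the 3D values above (-2.01 ± 0.55, adjusted p = 0.0108). Its first 3D-2D-3D library nearly meets the third 3D library (1.46 CPM), with 42 counts in each. In a fit of these groups only Cenpe was not called (edgeR, adjusted p = 0.0879). With replicate 3 alone its log2 fold change was -0.22. Racgap1 had 4.50, 3.86 and 5.22 CPM in 3D-2D-3D (-1.13 ± 0.33, adjusted p = 0.0169), and Bub1b 3.99, 5.04 and 3.00 CPM (-1.13 ± 0.29, adjusted p = 0.00824). The difference lay with the first and second libraries. The mean log2 difference of the members was -1.73 for replicate 1, -1.38 for replicate 2 and -0.10 for replicate 3. In replicate 3, 24 of 40 members were lower in 3D-2D-3D, beside 49.3% of tested genes. Macrophage markers summed to 235, 225.7 and 249 CPM in 3D-2D-3D, near the third 3D library and below the others. Summed endothelial markers were 152 to 213 CPM in 3D-2D-3D, against 77.6 to 111 in 3D, and pericyte and smooth muscle markers 231 to 307 CPM, against 107 to 172. For Schwann markers the sums were 9.22 to 13 CPM in 3D-2D-3D, against 15.2 to 29.3 in 3D; the part of these cells in the result was not tested. The count was 1 with the replicate number as a block, beside 717 genes of all tested lower. It was 3 in a fit of these groups only (618 genes), 7 without 3D replicate 1 (1128 genes) and 12 without 3D replicate 2 (1142 genes). Without 3D-2D-3D replicate 3 it was 14 (1373 genes) and without 3D-2D-3D replicate 1 it was 15 (1165 genes). With the most alike libraries summed it was 0 (112 genes). The members' median lay between -0.96 and -1.34 in these settings and was -0.14 with replicate 3 alone.

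At 5 days the set was again lower in 3D than in 2D. In 3D-5days against 2D-5days, 36 members were called lower, against 17.5% of tested genes, with a median of -2.45 over the members and 0.0033 over all genes. Their summed level was 4.37-fold lower. Kif2c differed most (-4.40 ± 0.66, adjusted p = 1.9e-05), with 3, 1 and 3 counts in 3D-5days, against 40, 43 and 41 in 2D-5days. Anln had 2.00, 0.918 and 0.994 CPM in 3D-5days, against 20.0, 23.0 and 21.8 in 2D-5days (-4.08 ± 0.51, adjusted p = 2.15e-06). Cdc20 had 1.89, 1.84 and 2.69 CPM in 3D-5days, against 12.2, 17.2 and 16.3 in 2D-5days (-2.83 ± 0.34, adjusted p = 1.37e-06). Cdk1 had 5.23, 2.67 and 4.97 CPM in 3D-5days and 15.1, 17.0 and 15.8 in 2D-5days (-1.91 ± 0.34, adjusted p = 0.000171). None of these genes overlaps between the groups. The 4 not called were Cenpa (-0.96 ± 0.40, adjusted p = 0.0748), the checkpoint kinase gene Ttk (-0.90 ± 0.53, adjusted p = 0.209), Incenp (-0.63 ± 0.30, adjusted p = 0.115) and Espl1. Espl1 had 4.67, 8.68 and 7.26 CPM in 3D-5days, against 7.09, 8.48 and 7.46 in 2D-5days, which overlap (-0.15 ± 0.31, adjusted p = 0.755). Incenp had 16.5, 14.7 and 14.7 CPM in 3D-5days, against 24.5, 25.3 and 21.2 in 2D-5days. In a fit of these groups only Incenp was called by edgeR, both without a block (adjusted p = 0.019) and with the replicate number as a block (adjusted p = 0.0018). In 3D-5days 9 members had a library with fewer than 5 counts, and 2 of these, Cdc25c and Ndc80, a library with none. Cdc25c, a phosphatase that activates Cdk1, had 0, 2 and 1 counts in 3D-5days, against 13, 10 and 13 in 2D-5days, and Ndc80 had 5, 3 and 0 counts, against 50, 19 and 26. Fitted folds of such genes depend on the prior count. Macrophage markers summed to 11780, 3139 and 3747 CPM in 3D-5days and to 2999, 743.4 and 735.5 CPM in 2D-5days. Summed endothelial markers were 124 to 129 CPM in 3D-5days, against 40.6 to 48.7 in 2D-5days, and cardiomyocyte markers 32.3 to 34.9 CPM, against 26.9 to 30.3. For pericyte and smooth muscle markers the sums were 91.4 to 107 CPM in 3D-5days, against 364 to 436 in 2D-5days, and epicardial and mesothelial markers 0.298 to 1.67 CPM, against 25.4 to 34. For Schwann markers the sums were 13.5 to 28.8 CPM in 3D-5days, against 6.81 to 12.4 in 2D-5days; the part of these cells in the result was not tested.

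The 2D cultures had less of the set at 5 days than with no stated time. In 2D-5days against 2D, 40 members were called lower, against 22.3% of tested genes, with a median of -3.08 over the members and -0.017 over all genes. In sum the set was 8.20-fold lower. Ect2, the exchange factor that turns on RhoA at the cell equator, differed most (-3.66 ± 0.38, adjusted p = 2.61e-07) and Incenp least (-1.90 ± 0.30, adjusted p = 2.54e-05). Bub1 had 4.02, 2.83 and 3.73 CPM in 2D-5days, against the 2D values above (-3.51 ± 0.55, adjusted p = 2.63e-05), and Tpx2 20.9, 19.2 and 19.9 CPM (-2.86 ± 0.40, adjusted p = 6.64e-06). Racgap1 had 18.3, 15.7 and 17.4 CPM in 2D-5days (-2.77 ± 0.34, adjusted p = 1.45e-06). The 2D-5days libraries lay below the 2D libraries in all of these genes. Summed fibroblast markers were 36660 to 62530 CPM in 2D-5days, against 14080 to 36060 in 2D, and cardiomyocyte markers 26.9 to 30.3 CPM, against 10.2 to 25.3. For pericyte and smooth muscle markers the sums were 364 to 436 CPM in 2D-5days, against 113 to 206 in 2D; the part of these cells in the result was not tested.

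In 3D-5days against 3D, 20 members were called lower, against 5.88% of tested genes, with a median of -1.60 over the members and -0.020 over all genes. Summed, the level was 2.48-fold lower. Kif4, a chromosome-bound kinesin, differed most (-2.98 ± 0.84, adjusted p = 0.0275) with 5, 1 and 3 counts in 3D-5days, and Incenp least (-0.21 ± 0.29, adjusted p = 0.695). Anln had the 3D-5days and 3D values above, with no overlap (-2.45 ± 0.52, adjusted p = 0.0049). The third 3D library lies at the level of 3D-5days, with a summed 109 CPM beside 115, 83.3 and 88.8 CPM in 3D-5days. Summed endothelial markers were 124 to 129 CPM in 3D-5days, against 77.6 to 111 in 3D, and cardiomyocyte markers 32.3 to 34.9 CPM, against 66.8 to 207. For pericyte and smooth muscle markers the sums were 91.4 to 107 CPM in 3D-5days, against 107 to 172 in 3D, and epicardial and mesothelial markers 0.298 to 1.67 CPM, against 3.76 to 12.2; the part of these cells in the result was not tested. The count was 0 in a fit of these groups only, beside 38 genes of all tested lower. It was also 0 with the most alike libraries summed, beside 23 genes. The members' median was -1.63 and -1.38 there, and -0.25 with replicate 3 alone in 3D. The count was 6 without 3D-5days replicate 2 or 3, 7 without 3D replicate 1 and 8 without 3D replicate 2. It was 31 without 3D replicate 3 and 33 with replicates 1 and 2 alone in 3D. In these fits 302 to 1030 genes of all tested were lower, and the members' median lay between -1.23 and -2.02.

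For 18 members the difference between 3D and 2D was smaller at 5 days than with no stated time. In the contrast of 3D-5days minus 2D-5days with 3D minus 2D, these 18 members were called higher, against 12.3% of tested genes, with a median of 1.44 over the members and -0.026 over all genes. A positive value here means that 3D lay less far below 2D at 5 days. All 40 values were above 0, from 0.13 to 3.10. The checkpoint kinase gene Ttk had the largest (3.10 ± 0.68, adjusted p = 0.00202, edgeR) and Ndc80, which binds microtubules at kinetochores, the smallest (0.13 ± 1.49, adjusted p = 0.968). Of the entry genes 6 of 10 were called, among them Aurka, Plk1 and Foxm1 (2.09 ± 0.50, adjusted p = 0.00427), and Cdk1 had 1.55 ± 0.46, adjusted p = 0.0154. Hmmr had 2.12 ± 0.46, adjusted p = 0.00193 and Tpx2 2.21 ± 0.56, adjusted p = 0.0061. Neither division marker was called, with 0.80 ± 1.05 for Mki67 and 0.52 ± 0.75 for Top2a. Anln, at 1.15 ± 0.68, was not called either (adjusted p = 0.234). These calls depend on the libraries. With replicate 3 alone in 3D and 2D, which leaves 1 library in each, the members' median was 2.53. Mki67 then had 4.21, Top2a 2.60 and Bub1 3.89. With the most alike libraries of each group summed, 3 members were called, beside 600 genes of all tested higher, and the members' median was 1.57.

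**Figure D5:**
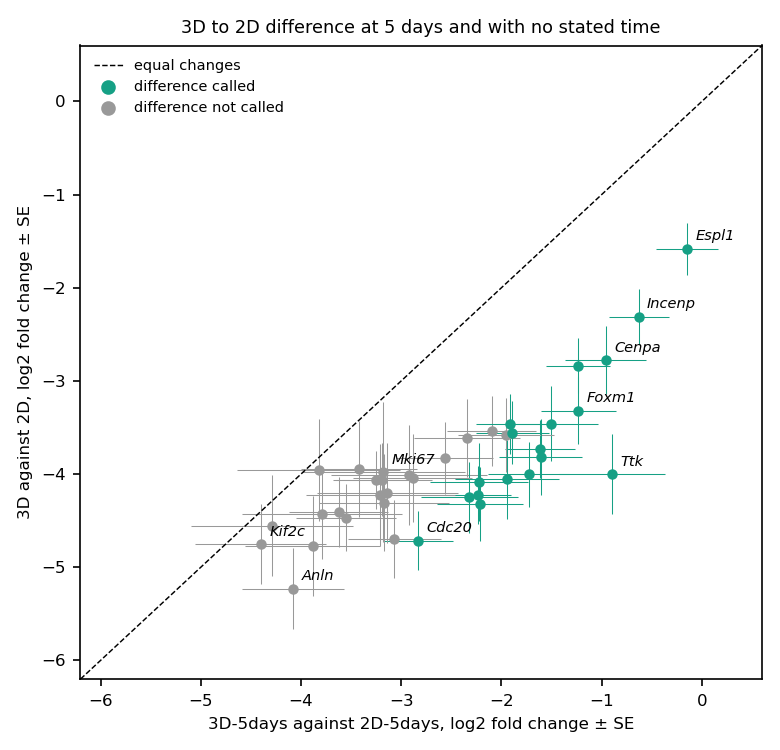
Log2 fold change, with its standard error, of 3D-5days against 2D-5days (horizontal) and of 3D against 2D (vertical) for the 40 genes, coloured by whether the difference between them was called. Points below the dashed line were less far below 2D at 5 days, and all 40 lie there. Espl1, Incenp, Cenpa and Ttk lie nearest to no difference at 5 days.

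Between the kPa groups no member was called. In 2D-8kPa against 2D-0.5kPa, 0 of 40 were called, against 0% of tested genes, with a median log2 fold change of -0.039. In 2D-64kPa against 2D-8kPa it was 0 of 40, against 0%, with a median of -0.073, and in 2D-64kPa against 2D-0.5kPa 0 of 40, against 0%, with a median of -0.11. At an unadjusted p under 0.05, edgeR gave 0 members in each of these comparisons and 82, 241 and 175 genes of all tested. DESeq2 called 0 genes too, with 71, 251 and 152 at an unadjusted p under 0.05. The standard errors of the members had a median of 0.35 on the log2 scale and ran from 0.27 to 0.66 in this unpaired fit. A change must exceed its standard error well to be called over all genes, so changes of about that size were not detectable. The libraries overlap for all members named here. Bub1b had 50.6, 53.8 and 94.0 CPM at 0.5 kPa, 52.7, 50.6 and 74.7 at 8 kPa and 49.0, 48.6 and 75.8 at 64 kPa. Cdk1 had 47.4, 60.9 and 102 CPM at 0.5 kPa, 55.5, 54.7 and 96.7 at 8 kPa and 48.4, 47.2 and 93.6 at 64 kPa. Cenpe had 58.8, 61.8 and 142 CPM, then 63.8, 65.3 and 133, then 56.3, 61.0 and 132 at 0.5, 8 and 64 kPa. In each gene the third library is high at every stiffness and the first and second lie below it. The largest member difference of 2D-8kPa against 2D-0.5kPa was that of Bub1b (-0.15 ± 0.27), that of 2D-64kPa against 2D-8kPa was Espl1 (-0.24 ± 0.27) and that of 2D-64kPa against 2D-0.5kPa was Cenpa (-0.25 ± 0.34). The smallest were those of Plk1, Hmmr and Nuf2. Group mean CPM was lower at 64 than at 0.5 kPa for 39 of 40 members, but each fitted change was smaller than its standard error. The lowest unadjusted p of a member was 0.453 in edgeR. The same count over all tested genes was not made, so the 39 cannot be judged against it. The median log2 fold change of all tested genes was -0.0068. Within the replicate numbers, the mean log2 difference of 2D-64kPa minus 2D-0.5kPa over the members was -0.075, -0.12 and -0.13. Of the 40 members 27, 33 and 36 were lower, beside 53%, 52.1% and 50% of tested genes. With the replicate number as a block, 0 members were called in any of these comparisons. That fit called 432 genes higher and 232 lower in 2D-64kPa than in 2D-8kPa, 2 higher in 2D-8kPa than in 2D-0.5kPa and 0 in 2D-64kPa against 2D-0.5kPa, where 851 had an unadjusted p under 0.05. With 1 library left out, the members' median ran from -0.35 to 0.36 in 2D-8kPa against 2D-0.5kPa and from -0.45 to 0.23 in 2D-64kPa against 2D-8kPa. In 2D-64kPa against 2D-0.5kPa it ran from -0.49 to 0.29. Each end of these ranges came from leaving out replicate 3, the high library, in 1 group only. Such fits are unbalanced in that library and cannot decide the direction. Within replicate numbers, the members' mean was lower in 2D-64kPa than in 2D-0.5kPa at every number. It changed sign between numbers in 2D-8kPa minus 2D-0.5kPa (0.169, -0.0364 and -0.156) and in 2D-64kPa minus 2D-8kPa (-0.244, -0.0829 and 0.0285).

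Other genes of the cell cycle were read from 6 lists that hold none of the members, to set the 40 genes beside their pathway. Of 57 further mitosis genes, 55 were lower and 0 higher in 3D than in 2D (median -3.28), beside 27.3% of all tested genes lower. In 3D-2D-3D against 3D-2D, 53 were lower (median -3.06), beside 25.0%. Depdc1a had the largest difference of that list between 3D and 2D (-5.43). Of 44 genes of S phase, the DNA replication stage, 41 were lower in 3D than in 2D (median -2.13), with Rrm2, a subunit of the enzyme that makes deoxynucleotides, at -3.78. Of these 44, 40 were higher in 3D-2D than in 3D (median 1.79), beside 28.8% of all tested genes. Dbf4 and Tyms, 2 of the 44, were lower in 3D-2D than in 2D (median of the list -0.29), a share below the 7.54% of all tested genes. At 5 days, 7 of 44 S phase genes were lower in 3D-5days than in 2D-5days (median -0.30), a share near the 17.5% of all tested genes. In the same comparison 36 of 57 further mitosis genes (median -1.50) and 36 of 40 members (median -2.45) were lower. In 2D-5days against 2D, 43 of 44 S phase genes were lower (median -2.03), beside 22.3% of all tested genes. In 3D-2D-3D against 3D-2D-2D, 16 S phase genes were lower and 1 higher (median -0.64), beside 43 and 1 of the further mitosis genes (median -1.63) and 20.6% of all tested genes lower. In 3D-2D-2D against 3D-2D, 42 S phase genes were lower (median -1.84), beside 23.6%. The lists were not tested against each other.

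The counts for 3D against 2D that follow stand beside 27.3% of all tested genes lower, and 3746 of the 14036 tested genes higher. Of 20 regulators of the DREAM and E2F system, 14 were lower and 1 higher in 3D than in 2D (median -0.74), with E2f7, a repressive E2F, at -4.83 and Mybl2, which encodes B-Myb, at -3.31. In 3D-2D against 3D, 12 were higher and 1 lower, beside 28.8% of all tested genes higher, and Mybl2 had 3.03. Of 18 condensin and cohesin genes, 16 were lower in 3D than in 2D (median -0.98), with the condensin gene Ncapg at -4.08. Of 17 genes of the anaphase-promoting complex and its partners, 8 were lower and 1 higher (median -0.23), with the inhibitor gene Fbxo5 at -3.66. Of 16 CDK inhibitors, D cyclins and their partners, 9 were lower and 4 higher in 3D than in 2D (median -0.93). Cdkn3 had the largest change of that list (-3.785), and Ccnd1, the cyclin of G1, had -2.44 ± 0.84. In the kPa comparisons no gene of the 6 lists was called.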

How the data were processed

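Per the submitters' processing notes, TopHat, Bowtie, HTSeq and MACS2 were used with the mm10 build. Versions, gene annotation and use of strand are not stated. The authors deposited raw read counts per gene symbol for 29 RNA libraries, and 5 summary lines of the counting program were left out of the totals. Libraries held 8509987 to 29909400 gene counts, and 14% to 28.4% of reads were not uniquely aligned.

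Counts were tested with edgeR 4.0.16 (R 4.3.3, limma 3.58.1): 1 mean per group over all libraries, TMM scaling (factors 0.868 to 1.10), the filterByExpr filter and robust quasi-likelihood F tests, with Benjamini-Hochberg adjustment over 14036 genes. Standard errors were taken as the absolute log2 fold change over the square root of F. The fit was checked on simulated counts. Alternatives were DESeq2 1.42.0, other scaling and filters, fits of the compared groups only, with a replicate block, with subsets or sums of libraries and with 1 library left out.

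Every same-number correlation of deviations was over 0.1 in 3D against 2D, 3D-2D-3D against 3D, 3D-5days against 2D-5days and the 3 stiffness comparisons. In all of these but 2D-64kPa against 2D-8kPa, at least 1 library correlated better with another number. An example is 2D-64kPa against 2D-0.5kPa, with 0.191 for replicate 2 and 0.53 for the best other number. The data alone therefore do not pair the numbers there. Values per library are given for the 2 members of each role with the highest mean log2 CPM, and for Mki67 and Foxm1. The largest and smallest changes, and members not called where at most 5 were not, are also named. Counts of a few further members were chosen after their values were seen. The members and lists were chosen with earlier results of these data known.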

Additional observations from a re-analysis of the deposited data

Results flagged for a closer look

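These results stand out because the effect of 3D against 2D differed between the cultures with a time of 5 days and those with no stated time, by a test of the difference itself in edgeR over all 14036 genes. The test called 18 members. Among the members described with their values, the difference on the log2 scale was 2.21 for Tpx2, 2.12 for Hmmr, 2.09 for Foxm1, 1.95 for Cdca8, 1.88 for Cdc20, 1.68 for Incenp, 1.66 for Racgap1, 1.6 for Bub1b, 1.55 for Cdk1 and 1.43 for Espl1. Every value is above 0, which means that the 3D cultures lay less far below the 2D cultures at 5 days. With the most alike libraries of each group summed, Hmmr was still called (edgeR, adjusted p = 0.0364), and the other 9 of these 10 were not, with adjusted p between 0.0588 and 0.146.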

How the results depend on the processing

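The counts of members called were within 1.5 times the main count in 187 of the recomputed settings and outside it in 29. These 29 belong to 5 comparisons, and the cause was not tested. For many of these settings the number of all tested genes called is given with the comparison above. With the replicate block, 3238 genes were lower in 3D-2D against 2D, beside 1058 in the main fit. In 3D-5days against 3D the block left 17 genes lower, beside 826. With 1 library left out, the contrast of the 5-day cultures had 1308 to 1865 genes higher, beside 1725. Fits with replicate 3 alone, or without 1 library of 3D-2D, leave 1 library in a group. Their counts rest on the spread of the other groups.

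In 3D-2D against 2D (21) the count was 9 in a fit of these groups only, 32 with the replicate block, 33 with replicates 1 and 2 alone, 1 with replicate 3 alone, 0 with the most alike libraries summed, and 0 to 22 with 1 library left out. In 3D-2D-3D against 3D (24) it was 3, 1 with the replicate block, 0 with replicate 3 alone, 0 with libraries summed, and 7 to 35 with 1 left out. In 3D-5days against 3D (20) it was 0, 0 with the replicate block, 33, 0 and 0 in the same settings, and 6 to 31 with 1 left out. In 3D-2D-2D against 3D-2D (36) it was 17 to 39 with 1 left out, and in the contrast of the 5-day cultures (18) 3 with libraries summed and 14 to 23 with 1 left out. The other ranges with 1 left out were 40 to 40 in 3D against 2D, 3D-2D-3D against 3D-2D and 2D-5days against 2D, 37 to 40 in 3D-2D against 3D, 37 to 37 in 3D-2D-3D against 3D-2D-2D, 34 to 36 at 5 days and 0 to 0 between stiffnesses.

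Of the called values of named members, 6 changed sign, all with replicate 3 alone. In 3D-2D-3D against 3D these were Top2a 0.0081, Cenpf 0.088, Mki67 0.25 and Bub1 0.86, and in 3D-5days against 3D Bub1 0.70 and Mki67 0.96. Values that were not called changed sign more widely, mostly between stiffnesses, and in the contrast of the 5-day cultures Mki67 was -0.38 and Bub1 -0.205 without 3D-5days replicate 1. Scaling by library totals alone moved the median of all genes to 0.16 in 3D against 2D (4541 genes higher and 3130 lower, beside 3746 and 3830), -0.16 in 3D-2D against 3D (3250 and 4641, beside 4044 and 3892), -0.16 in 3D-2D-2D against 3D-2D (2518 and 4223, beside 3209 and 3317), 0.22 in 3D-2D-3D against 3D-2D-2D (4747 and 1893, beside 2782 and 2895) and 0.13 at 5 days (2912 and 1877, beside 2098 and 2450). The members' medians there were -3.91, 2.60, -1.81, -2.25 and -2.33. In 3D-2D-3D against 3D the split was 1179 and 1890, beside 1566 and 1661, and in 3D-5days against 3D 420 and 1093, beside 634 and 826. The replicate block was fitted in every comparison. At least 1 same-number correlation of deviations was under 0.1 in each comparison with the 3D-2D group. The same held in 3D-2D-3D against 3D-2D-2D, 2D-5days against 2D and 3D-5days against 3D. Depth limits the members in 3D-5days, where counts went down to 0.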
